A study of Mus musculus with 11 samples.

Results

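The Iroquois homeobox family of the mouse has 6 members, Irx1, Irx2 and Irx4 in a cluster on chromosome 13 and Irx3, Irx5 and Irx6 in a cluster on chromosome 8. Accessible regions were followed around these genes in lung epithelial cells of fetal mice with and without Prdm3 and Prdm16. A region belonged to the family if its nearest protein-coding gene body, at most 100 kb away, was a member. Such regions numbered 64 of the 101557 found in at least 1 library. Of these, 52 had a peak in at least 3 of the 11 libraries and were tested, among 83262 tested regions of the genome. The other 12 had a peak in only 1 or 2 libraries. A region seen in libraries of 1 genotype alone can pass this minimum only by differing between the genotypes.

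Iroquois proteins are transcription factors of the TALE superclass, with a homeodomain extended by a short loop, and are known for dividing tissues into domains, first described in the fly and later in heart, limb, brain and lung. In vertebrates the genes lie in clusters of 3 spread over long stretches of sequence with few other genes, and neighbours in a cluster are known to share enhancers. Several members are transcribed in the epithelium of the developing lung. Irx4 is best known from the ventricles of the heart, Irx3 and Irx5 from limb patterning and the heart, and Irx6 from the retina.

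Accessibility was measured by ATAC-seq, a method that tags open DNA with a transposase, at E17.5 in cells captured from dissociated lungs with beads against the epithelial surface protein EpCAM. The 6 control libraries carry only the genotype Control in the labels, and no allele is given for them. The 5 knockout libraries, labelled Prdm3/16KO, lacked Prdm3 (also called Mecom) and Prdm16, a related pair of zinc-finger chromatin regulators, in cells in which the Shh gene drives Cre, which in the lung are epithelial. The labelled cross was Prdm3fl/flPrdm16fl/wtShhCre+ males with Prdm3fl/flPrdm16fl/fl females, so both genotypes may carry floxed Prdm3. Nothing in the labels says whether libraries came from separate fetuses, so p-values measure the spread between these libraries, which may be technical. In bulk cells, fewer cells with an open region and a weaker opening in each cell cannot be told apart.

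Read depth is not given in the sources used here, and the deletions were not checked. The deposited lists held 79525 to 112297 peaks in controls and 72935 to 85704 in knockouts, and each was shortened to its 72935 strongest peaks. Each peak was given a rank score, from 1 for the strongest in its library evenly down towards 0, and a region without a peak was given 0. A score is thus a place in the order of peaks within a library, and 0 means no peak among those kept, not closed chromatin. Differences are knockout minus control, and a region was called at an adjusted p below 0.05 in limma over all tested regions. The regions of 6 epithelial marker genes had mean scores of 0.359 to 0.407 in controls and 0.366 to 0.412 in knockouts, and 6 of 60 were called lower and 10 higher. Of those genes, Cldn18 lacked a region within 1 kb of a gene end. Mean scores were 0.355 to 0.440 and 0.337 to 0.455 for 6 endothelial genes (5 of 18 regions lower, 4 higher), and 0.268 to 0.384 and 0.279 to 0.377 for 5 leukocyte genes (3 of 14 lower, 0 higher, and 3 higher at an unadjusted p below 0.05). They were 0.250 to 0.330 and 0.200 to 0.283 for 7 mesenchymal genes, of whose 21 regions 2 were lower and 1 higher. Pecam1, Cdh5, Tie1 and Sox17 (endothelial), Ptprc, Csf1r and Laptm5 (leukocyte) and Pdgfra, Col3a1, Tbx4, Tbx5 and Tcf21 (mesenchymal) had no region within 1 kb of a gene end. The rest of these 3 lists had one. Its mean scores in controls and knockouts were 0.452 and 0.467 at Kdr, and 0.519 and 0 at Tek. They were 0.692 and 0.747 at Spi1, and 0.242 and 0 at Cd68. At Pdgfrb they were 0.167 and 0.0785, and at Col1a1 0.392 and 0.366. The part of other cell types in the Irx results was not tested.

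Promoter sequences place the members beside the regions described here. The table of RefSeq promoters used here (GRCm38.p6, the same coordinates as the mm10 build of the files) held 3 of the 6 members, and the 250 bases before the start of each are shown to set the sequence beside the peaks. The RefSeq starts of Irx2 and Irx3 lay in regions that were not called, and that of Irx4 lay in none. They are written 5′ to 3′ on the strand of the gene, and capitals mark matches to the motifs named after them.
Irx2, chr13:72628570-72628819, plus strand: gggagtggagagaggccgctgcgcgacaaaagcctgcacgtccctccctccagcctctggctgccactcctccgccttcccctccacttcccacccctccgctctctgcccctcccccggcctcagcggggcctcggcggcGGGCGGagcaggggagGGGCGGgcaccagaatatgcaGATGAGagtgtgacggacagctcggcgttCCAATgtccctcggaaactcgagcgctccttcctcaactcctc
Irx3, chr8:91801655-91801904, minus strand: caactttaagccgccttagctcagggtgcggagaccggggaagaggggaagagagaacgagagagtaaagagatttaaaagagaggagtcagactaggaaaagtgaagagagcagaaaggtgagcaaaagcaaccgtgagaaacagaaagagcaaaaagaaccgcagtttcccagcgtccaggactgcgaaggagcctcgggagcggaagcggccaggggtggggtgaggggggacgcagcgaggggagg
Irx4, chr13:73260247-73260496, plus strand: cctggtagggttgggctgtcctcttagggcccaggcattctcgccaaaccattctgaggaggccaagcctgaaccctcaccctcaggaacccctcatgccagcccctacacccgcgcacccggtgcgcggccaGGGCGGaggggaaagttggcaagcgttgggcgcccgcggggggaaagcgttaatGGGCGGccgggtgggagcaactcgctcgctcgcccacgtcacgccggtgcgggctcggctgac
The promoters of Irx2 and Irx4 were rich in G and C, at 68.4% and 68.8%, with 19 and 22 CpG dinucleotides. That of Irx3 had 56.0% and 13. Medians over the 32851 promoters of the table were 52.4% and 6, so all 3 lay above them in both measures. The ratio of observed to expected CpG was 0.666 in Irx2, 0.790 in Irx3 and 0.744 in Irx4, against a median of 0.374.

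Both strands were searched for 6 short motifs. GGGCGG, the GC box, was found at 2 places each in Irx2 and Irx4 and in 32.7% of all promoters. CCAAT, bound by NF-Y, was found once in Irx2 and in 33.9% of promoters. GATGAG, part of a sequence bound by the C-terminal zinc fingers of MECOM, was found once in Irx2 and in 10.1%. No match was found to GATAAG, known to be bound by GATA factors and by the N-terminal fingers of MECOM (6.55% of promoters), to CACTTG, the core bound by NKX2-1 (11.6%), or to TATAAA, the core of the TBP site (12.4%). The Irx3 window held no match to any of the 6. None of the motifs overlaps another by its letters in these windows, and a match is a description of sequence, not a binding site.

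Across the 52 tested regions, 14 were lower in the knockouts, 7 were higher and 31 were not called, while 27 had an unadjusted p below 0.05. Among all tested regions, limma called 37.8% in either direction, 20.8% lower and 17.0% higher. The members stood at 40.4%, 26.9% and 13.5%, close to those shares, so the number of changes at the Irx genes was near that of the genome. Differences ran from −0.648 to 0.802 with a median of −0.0503, against −0.0208 over all tested regions. Every control score lay above every knockout score at 6 regions and every knockout above every control at 3, which is 11.5% and 5.77% of the members against 12.1% and 10.9% of all regions. Presence of a peak differed by Fisher's exact test at 10 of the 18 regions where the test could reach p below 0.05, 6 with more control and 4 with more knockout libraries, while 47.2% of such regions of the genome were called. When scores were centred on each library's mean, the Irx calls became 11 lower and 7 higher, and those of the genome 17.2% lower and 20.3% higher.

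Most tested regions lay outside the gene bodies, and so did most called ones. Of 39 member regions between genes, 18 were called, of 9 within 1 kb of a gene end 3, and of 4 deeper in a gene body 0, with 1 of these 4 at an unadjusted p below 0.05 in limma and 0 called by Fisher's exact test. Over the genome, limma called 42.5% of regions outside genes within 100 kb and 16.1% of those within 1 kb of a gene end. No such share is given for regions deeper in a gene body, so the 0 there is no result about the members. A peak was present in all 11 libraries at 22 member regions (42.3%, against 43.9% of all tested regions). Of these, 5 were called lower, 1 higher and 16 not called, and 8 had a mean score over 0.8. At 8 tested regions of Irx1 and Irx2, 3 of them called, a broad peak covered neighbouring windows in some libraries, so those windows are not independent.

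**Figure D1:**
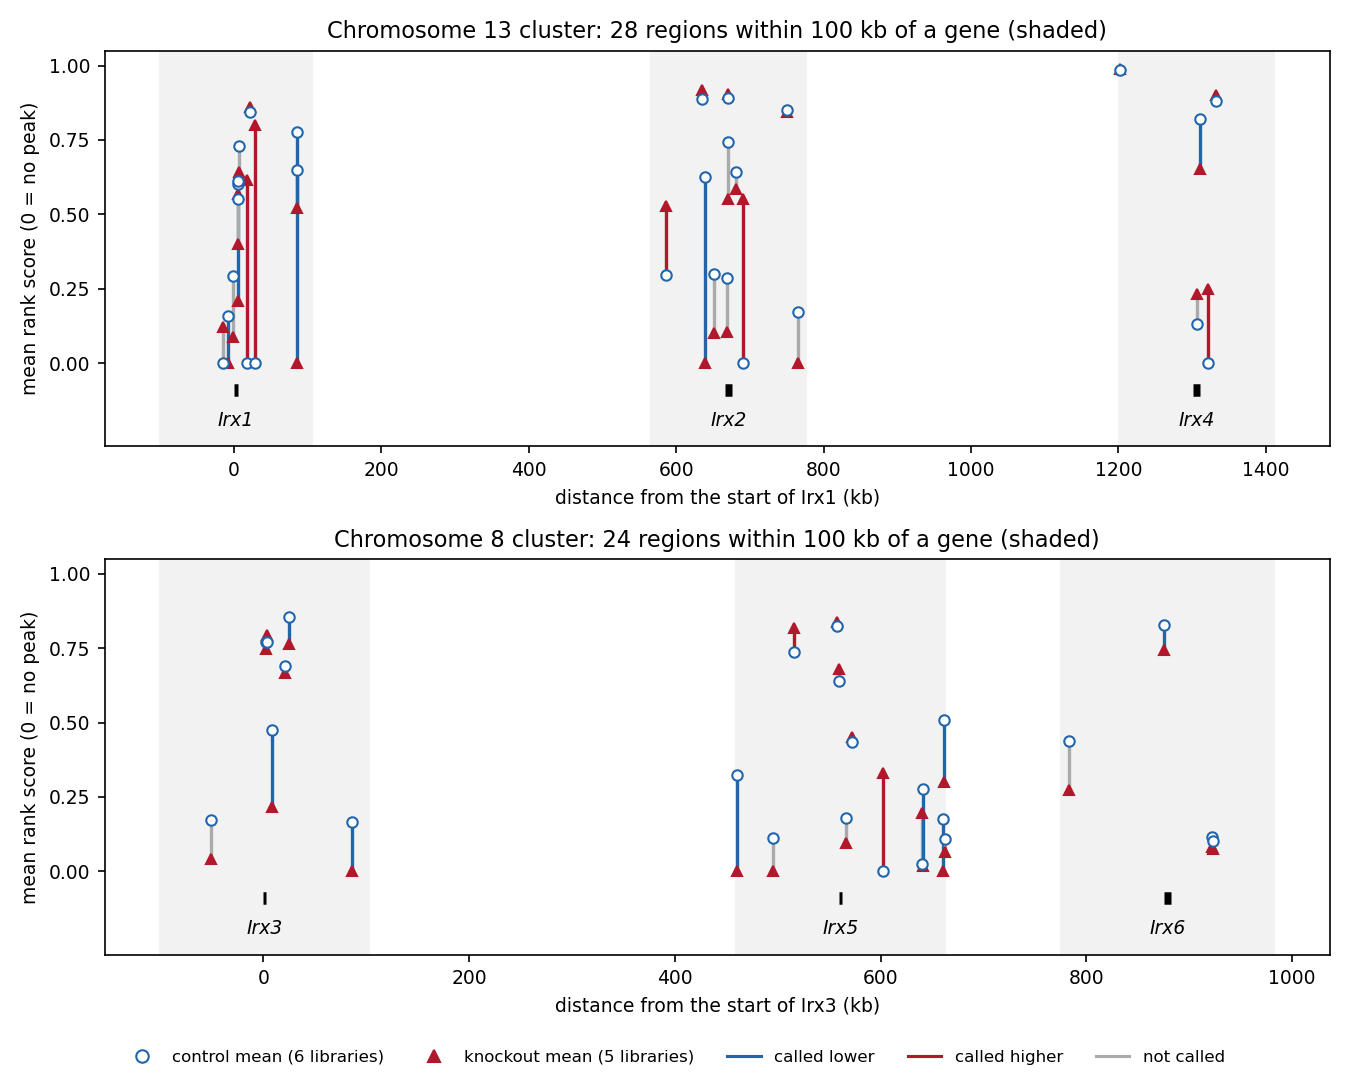
Mean rank score of each tested region (y axis) in 6 control (open circles) and 5 knockout libraries (triangles) against distance in kb from the start of the first gene of its cluster (x axis), chromosome 13 above and chromosome 8 below; a line joins the means and its colour gives the call, black bars are genes and shading marks 100 kb around them. Most tested regions, called or not, lie outside the gene bodies, and the greatest rises, to 0.802 and 0.615, sit together beside Irx1.

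Mean scores per gene give the level and its spread. In controls the order was Irx4 at 0.563 ± 0.0301, Irx3 at 0.558 ± 0.0238, Irx2 at 0.517 ± 0.0704, Irx1 at 0.435 ± 0.0753, Irx6 at 0.371 ± 0.0481 and Irx5 at 0.334 ± 0.0151 (SD, n = 6). In knockouts it was Irx4 at 0.605 ± 0.0471, Irx2 at 0.463 ± 0.0730, Irx3 at 0.462 ± 0.0178, Irx1 at 0.402 ± 0.0238, Irx6 at 0.293 ± 0.0551 and Irx5 at 0.293 ± 0.0425 (SD, n = 5). In controls the ranges of every pair of neighbours in this order overlapped. In knockouts those of Irx4 and Irx2, and of Irx3 and Irx1, did not. These are means over the regions of a gene, not transcript levels.

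Irx3 was the gene whose mean separated the genotypes. Its control means were 0.524 at the lowest, 0.558 at the median and 0.595 at the highest, and its knockout means ran from 0.430 to 0.472, with no overlap. The difference of −0.0958 was −0.102 with lists as deposited, −0.113 with merged peaks, −0.0761 with centred scores and −0.0589 with ranking by fold. The chromosome 8 cluster showed the same separation, from 0.388 to 0.420 in controls and 0.312 to 0.370 in knockouts. Its difference was −0.0636, and stayed negative with lists as deposited (−0.109), peaks ranked by fold (−0.0548), overlapping peaks merged (−0.0693) and centred scores (−0.0439). The chromosome 13 cluster averaged 0.490 ± 0.0528 in controls against 0.462 ± 0.0427 in knockouts. Its difference of −0.0279 was within the spread and turned to 0.0372 with ranking by fold and to 0.0289 with merged peaks. Without knockout replicate 5 it was −0.0110, without control replicate 3 −0.0170, without control replicate 5 −0.0492, and without knockout replicate 1, 2 or 4 −0.0459, −0.0437 or −0.0532. Leaving out control replicate 3 or knockout replicate 1, 2 or 4 also dropped regions with a peak in only 3 libraries. Those values thus mix the loss of a library with the loss of regions. No test was run on the gene and cluster means, since the genes were chosen with earlier results known. The share of the genome's genes whose means separate in this way is not given. The separations at Irx3 and the chromosome 8 cluster are therefore no result about the members.

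**Figure D2:**
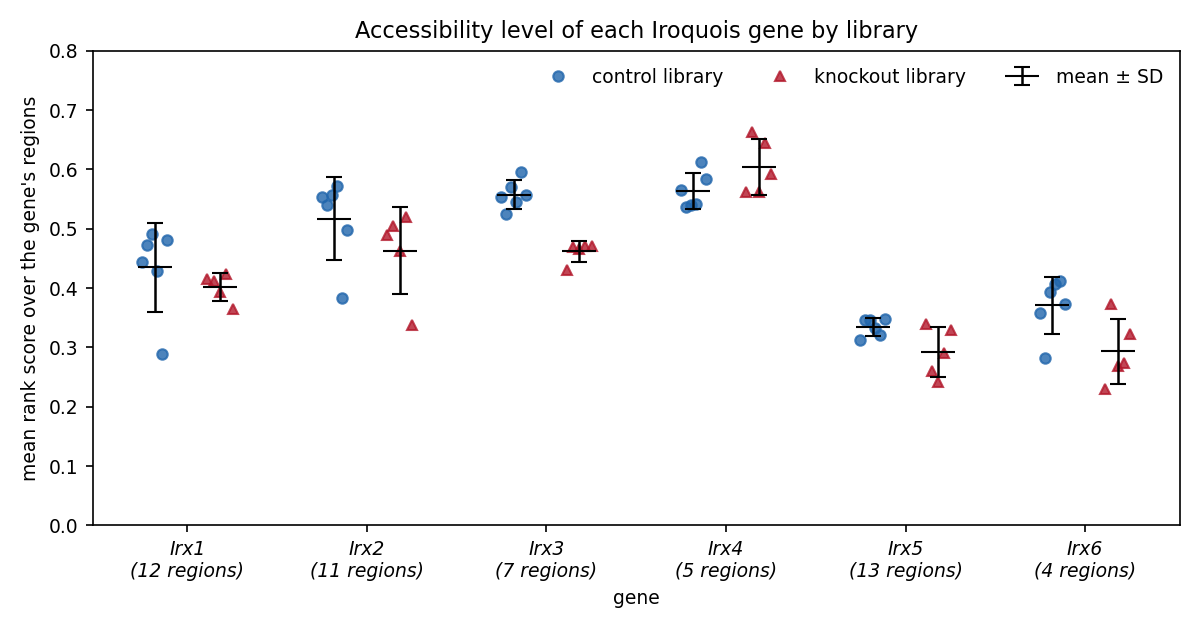
Mean rank score of the tested regions of each gene (y axis, from 0) in every library, by gene (x axis); circles are controls, triangles knockouts, and black bars the mean ± SD. Irx3 is the gene at which the control range (0.524 to 0.595) and the knockout range (0.430 to 0.472) do not meet.

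Irx1 (Entrez Gene 16371, chr13:71958232-71963723), a family member transcribed in the embryonic lung, had 12 tested regions, of which 4 were called lower and 2 higher. The greatest rise of the family stood between Irx1 and Irx2, 23.2 kb from the Irx1 body, at chr13:71986746-71987145. No control had a peak there, also in the lists as deposited. The 5 knockouts scored 0.828, 0.802, 0.740, 0.816 and 0.824, so all knockouts lay high and none overlapped a control. The mean of 0.802 ± 0.0361 (SD, n = 5) against 0 gave an adjusted p of 2.48e-08 in limma. Its enrichment over background, as deposited by the authors, was 12.6 to 17.2 in the knockouts.

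A weaker region with the same pattern lay at chr13:71975727-71976126, 12.2 kb from Irx1. It scored 0 in every control and 0.500, 0.597, 0.595, 0.733 and 0.649 in the knockouts. Here too every knockout stood above every control. The mean was 0.615 ± 0.0853 (SD, n = 5), with an adjusted p of 7.9e-07 in limma. Between them, the region at chr13:71980179-71980578, chosen after its values were seen, scored 0.845 ± 0.0243 in controls against 0.862 ± 0.0141 in knockouts (SD, n = 6 and 5) and was not called. The stretch thus held a strong region present in all 11 libraries, flanked by a pair seen in the knockouts alone. Both calls held in all alternatives tried.

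Farther out, 80.6 kb from Irx1, the region at chr13:72044075-72044474 was lower in the knockouts. Controls scored 0.709 at the lowest, 0.788 at the median and 0.823 at the highest, and knockouts scored 0.484, 0.389, 0.571, 0.522 and 0.646. Every knockout lay below every control. The difference was −0.255 (SE 0.0417), with an adjusted p of 2.65e-04 in limma, but −0.0497 with an adjusted p of 0.434 when peaks were ranked by fold. The adjoining window at chr13:72043433-72043832 scored 0.648 ± 0.316 in controls and 0 in every knockout (SD, n = 6 and 5, adjusted p of 9.75e-04 in limma). In 5 controls it shared the broad peak of its neighbour, control replicate 5 scored 0.00995, and the call was lost with lists as deposited (−0.0796, adjusted p of 0.0511) and with a −log10 q of at least 5 (−0.288, adjusted p of 0.164).

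At the Irx1 gene end the picture was mixed. The strongest end region, at chr13:71964366-71964765, scored 0.730 ± 0.0498 in controls against 0.641 ± 0.0801 in knockouts and missed the threshold in limma (SD, n = 6 and 5, adjusted p of 0.0808), while lists as deposited (−0.112, adjusted p of 0.0378), a −log10 q of at least 5 (−0.121, 0.0373) and leaving out knockout replicate 4 (−0.118, 0.0203) called it. The window at chr13:71963085-71963484, inside the gene 438 bp from its end, was called lower in limma at 0.601 ± 0.300 against 0.209 ± 0.202 (SD, n = 6 and 5, adjusted p of 0.0392). It shared a peak with its neighbours in 6 libraries, and control replicate 5 had none. This call was lost in 14 alternatives and the difference reversed in lists as deposited (0.0729, adjusted p of 0.393). Leaving out any control but replicate 5, or any knockout but replicate 2, gave adjusted p-values of 0.0645 to 0.0952.

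The mean over the Irx1 regions, 0.435 in controls and 0.402 in knockouts, therefore joins rises and falls. It turned positive with lists as deposited (0.0481), with ranking by fold (0.00935) and with merged peaks (0.106). The difference varied with single libraries as well, at −0.0617 without control replicate 5 and −0.0212 without control replicate 3. Without knockout replicate 1 and 4 it was −0.0498 and −0.0529. Both of these steps also took the region at chr13:71942853-71943252 below the minimum of 3 libraries, so those means were over fewer regions.

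Irx2 (Entrez Gene 16372, chr13:72624430-72634196), the middle gene of the cluster, had 11 tested regions, 1 called lower and 2 higher. The region lost from the knockouts lay 27.0 kb from the gene, on the side of Irx1, at chr13:72597197-72597596. Controls scored 0.506 at the lowest, 0.597 at the median and 0.788 at the highest, and every knockout scored 0. All 6 controls and no knockout had this peak, in the deposited lists too. The mean fell by 0.624 (SE 0.0586), with an adjusted p of 1.84e-06 in limma. Ranked by fold the fall was 0.164 and was not called (−0.164, adjusted p of 0.0647). The authors' deposited enrichment at this peak was 5.43 to 9.06.

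On the other side of Irx2, 14.8 kb away, the region at chr13:72648808-72649207 was gained. It scored 0 in every control and 0.605, 0.812, 0.687, 0.658 and 0 in the knockouts. Knockout replicate 5 had no peak and so overlapped the controls, while the other 4 knockouts stood high. The mean of 0.552 ± 0.318 (SD, n = 5) had an adjusted p of 0.00173 in limma, and the authors' enrichment was 14.3 to 22.1. A weaker rise at chr13:72544367-72544766, from 0.297 ± 0.186 to 0.529 ± 0.0776 (SD, n = 6 and 5, adjusted p of 0.0442 in limma), was lost in 13 of 22 alternatives. Among them, leaving out control replicate 3, 5 or 6 or knockout replicate 1, 2, 3 or 4 gave differences of 0.172 to 0.235 with adjusted p-values of 0.0649 to 0.100.

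The Irx2 promoter printed above lay under a strong region at chr13:72628519-72628918, which is outside the naming rule and was picked for that position. It scored 0.890 ± 0.0284 in controls against 0.906 ± 0.0230 in knockouts (SD, n = 6 and 5) and was not called in limma (adjusted p of 0.433). In 8 libraries it shared its peak with a neighbouring window. The RefSeq start of this promoter lies inside the gene span used here, which begins at 72624430. A region nearer that edge, at chr13:72625202-72625601, had a peak in 1 library and was not tested. The difference in the mean over the Irx2 regions was −0.0543 with all libraries and −0.0231 without knockout replicate 5, and it turned to 0.0495 with ranking by fold. It was −0.0361 without control replicate 1 and −0.0346 without control replicate 4. Both of these steps also took the region at chr13:72722984-72723383 below the minimum of 3 libraries, so those means were over fewer regions.

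Irx4 (Entrez Gene 50916, chr13:73259589-73269622), a regulator of ventricular identity in the heart, had 5 tested regions, 1 lower and 1 higher. The fall was inside the gene, 670 bp from its end, at chr13:73268752-73269151. Controls scored 0.744 at the lowest, 0.813 at the median and 0.895 at the highest, and knockouts scored 0.609, 0.690, 0.707, 0.611 and 0.649. Every control stood above every knockout. The difference was −0.166 (SE 0.0304), with an adjusted p of 6.57e-04 in limma, and was called in all 22 alternatives. No tested region overlapped the Irx4 promoter printed above, and the nearest was centred 5091 bp from the gene start.

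A region 9.81 kb from Irx4, at chr13:73279232-73279631, had no control peak and knockout scores of 0.286, 0.529, 0, 0.422 and 0. It was called higher in limma (0.247 ± 0.242, SD, n = 5, adjusted p of 0.0415). With a peak in 3 knockouts and no control, it just met the minimum for testing, and only through the group where it was high. The call was lost whichever control was left out (adjusted p of 0.0618 to 0.0661), with the replicate block and without limma's trend and robust options. The highest score of the whole family belonged to chr13:73160313-73160712, 99.1 kb from Irx4 towards Irx2, also outside the naming rule. It ranked between 321 and 1943 in control lists and between 546 and 1033 in knockout lists, with an authors' enrichment of 29.9 ± 1.42 and 29.6 ± 1.85 (SD, n = 6 and 5). The mean score of Irx4, 0.563 in controls and 0.605 in knockouts, differed by 0.0413, less than the SD of the knockouts. The difference was 0.00559, −0.0109 and −0.0119 without knockout replicate 1, 2 and 4. Each of these steps also took the region at chr13:73279232-73279631 below the minimum of 3 libraries. Those means were thus over fewer regions, and the shifts are not those of a library alone.

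Irx3 (Entrez Gene 16373, chr8:91798511-91801654) is the end gene of the chromosome 8 cluster and the neighbour of Fto, whose introns are known for sequences that contact the Irx3 promoter. Of its 7 tested regions, 3 were lower and 0 higher in limma, with 0 higher at an unadjusted p below 0.05 and 0 by Fisher's exact test.  The window over the printed promoter, at chr8:91801334-91801733 and again outside the naming rule, scored 0.773 ± 0.0437 in controls against 0.746 ± 0.0240 in knockouts (adjusted p of 0.403 in limma). The next, at chr8:91801918-91802317, scored 0.771 ± 0.0557 and 0.796 ± 0.0587 (SD, n = 6 and 5, adjusted p of 0.557). Neither was called.

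A fall at Irx3 lay 21.9 kb away, at chr8:91823355-91823754. Controls scored 0.844 at the lowest, 0.856 at the median and 0.864 at the highest, and knockouts scored 0.730, 0.781, 0.720, 0.765 and 0.826. The controls lay within a narrow band above every knockout. The difference was −0.0911 (SE 0.0185), with an adjusted p of 0.00149 in limma, but −0.0122 with an adjusted p of 0.825 when ranked by fold. At chr8:91884865-91885264, 83.4 kb away, 5 of 6 controls and no knockout had a peak. Scores were 0 at the lowest, 0.180 at the median and 0.252 at the highest in controls (difference −0.165, adjusted p of 0.0149 in limma).

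The third fall was the nearest, 5.45 kb from Irx3 at chr8:91806908-91807307. Controls scored 0.212 at the lowest, 0.512 at the median and 0.575 at the highest, and knockouts scored 0, 0.246, 0.388, 0.115 and 0.335. Control replicate 1 overlapped the knockouts, and the other 5 controls lay above them. The difference of −0.257 had an adjusted p of 0.0278 in limma and was lost with lists cut to 36467 peaks (−0.0554, 0.218) and with ranking by fold (−0.0645, 0.537). Leaving out control replicate 3, 4 or 6 or knockout replicate 1 or 4 gave −0.203 to −0.248, with adjusted p-values of 0.0518 to 0.0725. At Irx3, then, neither start region was called and 3 of the 5 regions outside the gene were lower.

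Irx5 (Entrez Gene 54352, chr8:92357796-92361456), which acts with Irx3 in limb and heart, had the most tested regions, 13, of which 4 were called lower and 2 higher. Its start region at chr8:92357561-92357960 scored 0.639 ± 0.0858 in controls against 0.681 ± 0.0552 in knockouts (SD, n = 6 and 5, adjusted p of 0.476 in limma). It was not called, as at Irx3.

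The gained region of Irx5 lay 39.0 kb towards Irx6, at chr8:92400219-92400618. It scored 0 in every control and 0.284, 0.555, 0.0683, 0.327 and 0.424 in the knockouts. Every knockout had the peak and none of the controls did, although the scores were low and spread widely. The mean of 0.332 ± 0.180 (SD, n = 5) had an adjusted p of 0.00282 in limma. On the Irx3 side, 43.9 kb away, chr8:92313705-92314104 rose from 0.738 ± 0.0350 to 0.818 ± 0.0405 (SD, n = 6 and 5, adjusted p of 0.0149 in limma). This rise was lost with lists as deposited (0.0421, 0.142), with a −log10 q of at least 5 (0.0468, 0.135) and with ranking by fold (0.0644, 0.133).

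The falls at Irx5 were far from the gene, 78.4 to 99.3 kb away. At chr8:92258319-92258718 controls scored 0 at the lowest, 0.382 at the median and 0.471 at the highest, and no knockout had a peak. Control replicate 1 had none either. The difference was −0.323 (adjusted p of 0.00520 in limma). At chr8:92460106-92460505 controls scored 0.435 at the lowest, 0.498 at the median and 0.587 at the highest, and knockouts scored 0.366, 0.294, 0.156, 0.296 and 0.398. Here every control stood above every knockout. The difference of −0.206 (SE 0.0565, adjusted p of 0.0108 in limma) was lost with lists cut to 36467 peaks (−0.0615, 0.219) and with ranking by fold (−0.103, 0.153). At chr8:92439635-92440034, 5 of 6 controls and 1 of 5 knockouts had a peak, with means of 0.276 ± 0.188 and 0.0196 ± 0.0438 (SD, n = 6 and 5, adjusted p of 0.0262 in limma). That call was lost without control replicate 3 or 6 or knockout replicate 2, 3 or 4 (adjusted p of 0.0507 to 0.0516) and with the replicate block (−0.222, 0.0670).

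Irx6 (Entrez Gene 64379, chr8:92674289-92680956) had 4 tested regions, 1 of them lower. It lay 651 bp from the gene, at chr8:92673438-92673837. Controls scored 0.777 at the lowest, 0.830 at the median and 0.864 at the highest, and knockouts scored 0.771, 0.781, 0.728, 0.714 and 0.727. Only control replicate 2 lay within the knockout range. The difference was −0.0829 (SE 0.0209), with an adjusted p of 0.00663 in limma. It was not called with ranking by fold (−0.0559, 0.0651) or with scores centred per library (−0.0632, 0.0510). Irx4 and Irx6 thus each had 1 region called lower, and it lay within 1 kb of a gene end, as did 1 of the 4 at Irx1. A gene end here is either end of the gene, and at Irx4 it was the one opposite the RefSeq start.

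**Figure D3:**
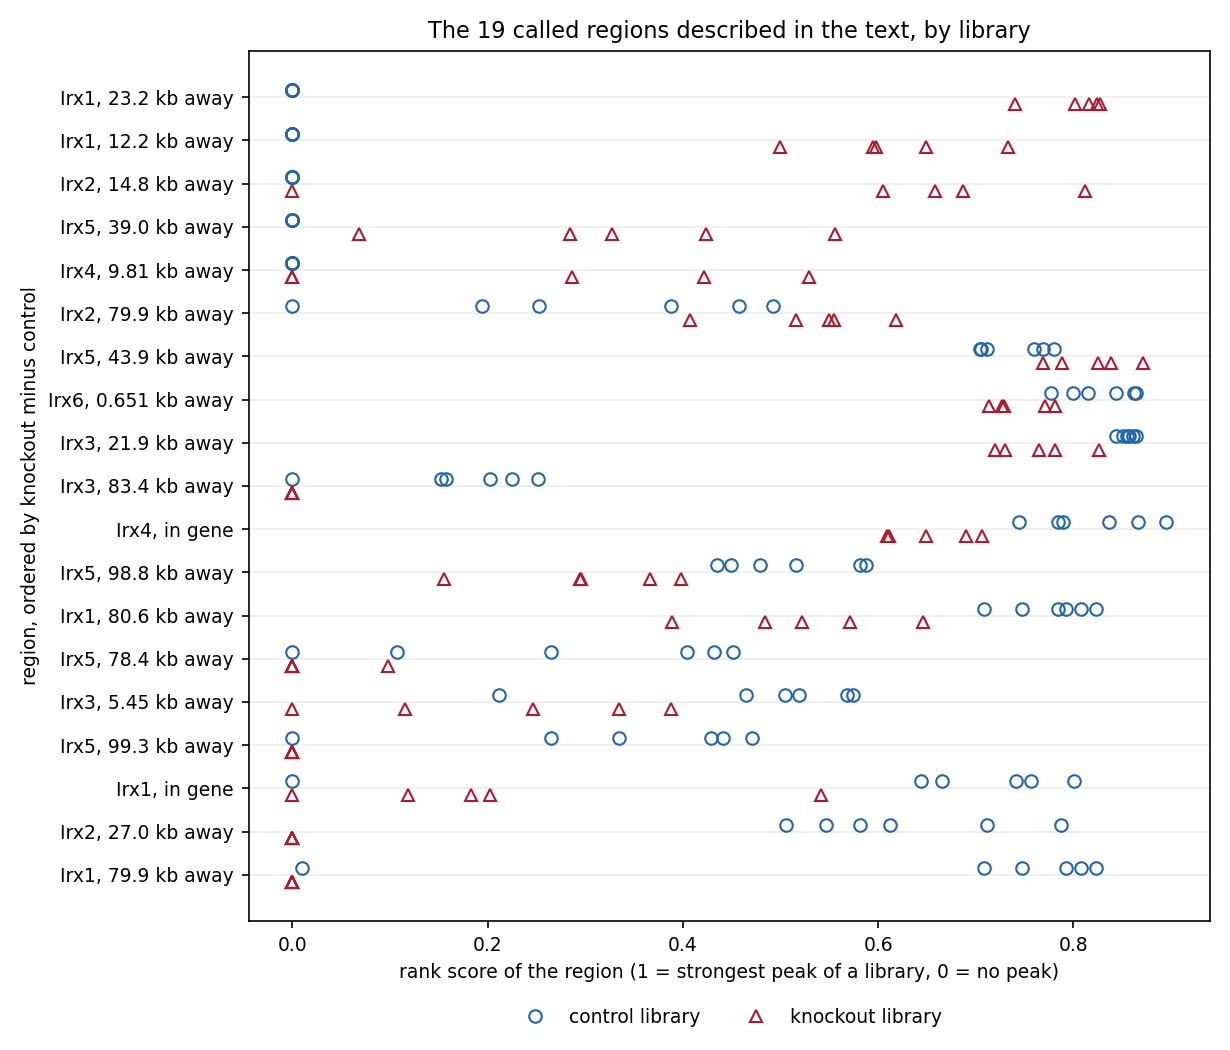
Rank score (x axis) in each library of the 19 called regions named in the text (y axis, by gene and distance, ordered by difference); circles are control and triangles knockout libraries. The regions gained beside Irx1 rise from 0 to 0.615 and 0.802, and the Irx2 region at 27.0 kb falls from 0.624 to 0.

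Just inside the limit of 100 kb lay the strong region of Irx4 at 99.1 kb, the Irx5 region at 99.3 kb with means of 0.323 and 0, and an Irx5 region at chr8:92460700-92461099 (99.4 kb) with means of 0.110 and 0.0663. Just outside lay chr8:91901889-91902288, 100.4 kb from Irx3, with means of 0.644 in controls and 0.389 in knockouts, and chr13:72735845-72736244, 101.8 kb from Irx2, with 0.412 and 0.0226. The next regions out were an Irx2 region at 103.0 kb with means of 0.801 and 0.781, an Irx6 region at 104.1 kb with 0 and 0.107, an Irx5 region at 104.6 kb with 0.787 and 0.768, and an Irx3 region at 105.8 kb with 0.851 and 0.808.

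The number of peaks was lower in the knockouts as deposited and nearly equal after the lists were made equally long. The lists held 63, 54, 61, 65, 48 and 76 Irx peaks in the controls and 52, 46, 55, 51 and 41 in the knockouts, or 61.2 ± 9.62 and 49.0 ± 5.52 (SD, n = 6 and 5). At equal length the numbers were 46.0 ± 3.35 and 43.8 ± 3.56, a difference within the spread. Within that total, Irx5 went from 11.5 ± 0.837 to 8.80 ± 1.48 peaks and Irx3 from 6.83 ± 0.983 to 5.40 ± 0.894, while Irx1 went from 7.33 ± 1.75 to 9.40 ± 2.97. Of the 64 regions, 14 had peaks in controls alone and 12 in knockouts alone. Both counts take in untested regions with a peak in only 1 or 2 libraries, and a region seen in 1 library is always of 1 genotype. The genome's share is not given, so these counts are no result about the members.

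Other TALE homeobox genes, relatives of the Iroquois proteins, gave a comparison. The 74 regions at 11 such genes held 10 called lower and 17 higher (36.5%), with a median difference of −0.0204. Of the 11 genes, 5 had called regions in both directions, 5 had only regions called higher, and Pknox1 had none called. In limma the largest changes among the 11 were rises within the gene bodies of Pknox2, from 0 to 0.727 ± 0.0568 (SD, n = 5, adjusted p of 7.74e-08), Meis1, from 0 to 0.691 ± 0.0481 (1.03e-07), Meis2, from 0.116 ± 0.105 to 0.729 ± 0.0478 (2.36e-06), and Mkx, from 0 to 0.598 ± 0.0410 (3.37e-07). The next was a rise at Pbx2 from 0.0671 to 0.608. At the genes of the Hox clusters, the other clustered homeobox family, 33 of 39 genes had no region within 1 kb of a gene end. Only 26 regions were tested there, and limma called 0 lower and 3 higher (11.5%), with 0 and 7 at an unadjusted p below 0.05 and a median difference of 0.0679. Fisher's exact test called 0 of them.

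The genes beside the clusters were examined in the same way. The 12 nearest other protein-coding genes had 95 regions, 21 lower and 22 higher (45.3%), with a median difference of −0.00445. Fto, 130.1 kb from Irx3 and a demethylase of RNA, had 30 regions, 8 lower and 7 higher. Its greatest change was a rise at chr8:91535869-91536268 within the gene, from 0.0311 ± 0.0555 to 0.691 ± 0.0768 (SD, n = 6 and 5, adjusted p of 5.89e-07 in limma). On chromosome 13 a region of Adamts16, a secreted metalloprotease gene, rose from 0 to 0.716 and one of Ice1 from 0.207 to 0.679. A region of Lpcat1, which makes surfactant phosphatidylcholine in the lung, went from 0.589 to 0.0184 and one of Aktip from 0.0502 to 0.441.

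Likeness to the family was measured over the 11 libraries as the mean absolute difference between centred mean scores. Averaged over its 6 genes, the family stood at 0.463 in controls and 0.420 in knockouts. Of 5146 genes with at least 5 tested regions, the closest were Ntm (0.00940), Atp8a1 (0.0100), Rapgef5 (0.0112), Dock9 (0.0118) and Abcc4 (0.0119), against a median of 0.0484. They had 18 to 31 regions each and differed by −0.0521 to −0.0271 between the genotypes. They are named for this likeness alone.

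**Figure D4:**
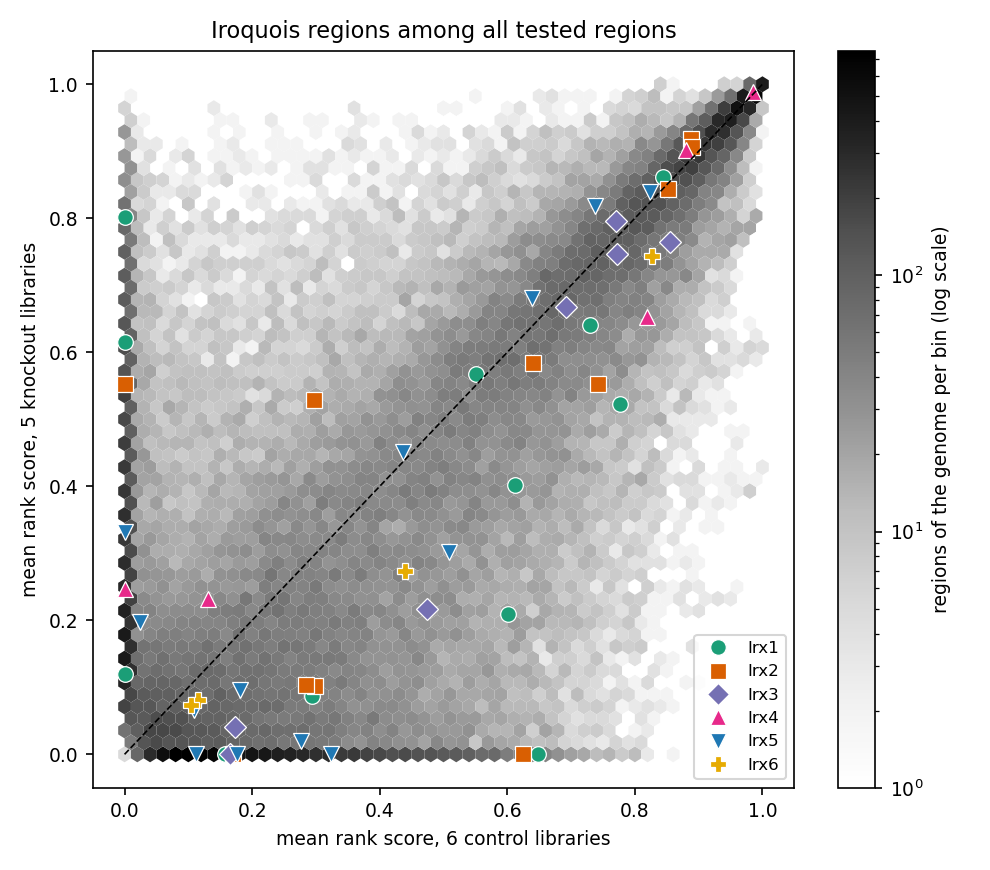
Mean rank score in knockouts (y axis) against that in controls (x axis) for all tested regions (grey, darker where more fall in a bin, log scale) and for the Irx regions (symbols by gene); the dashed line marks equal scores. Irx regions lie on both sides of the line, with those gained at Irx1 on the left edge at 0.615 and 0.802 and the Irx2 region lost on the lower edge at 0.624.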

How the data were processed

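ATAC-seq peak lists of 6 control and 5 knockout libraries were used, 1 per library, grouped by the labelled genotype. Per the submitters' processing notes, mm10, MACS2, DiffBind 3 and deepTools were used. Not given in the sources used here: what each did, the aligner and the options of peak calling. The column layout was inferred from the numbers in the lists. The deposited fold enrichment is a ratio over background within a library. The deposited −log10 p and −log10 q values are per peak and rise with depth, and were therefore used only to order or filter peaks within a library. The deposited display score was not used.

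Peaks were ranked by −log10 p, and the first 72935 of each list were kept, the length of the shortest. Windows of 400 bp were centred on summits, the best-ranked of overlapping windows was kept, and a library had a region if a peak overlapped it by at least 100 bp. The minimum for testing was a peak in 3 libraries. Genes were 21883 protein-coding genes of a RefSeq table (GRCm38.p6), without exons, and distance ran from the window's centre to the nearest gene body.

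Genotypes were compared on the scores by limma 3.58.1 (R 4.3.3), with its trend and robust options and no covariate, and presence with Fisher's exact test, two-sided. P-values were adjusted by Benjamini-Hochberg at 0.05. For limma this was over all tested regions, and for Fisher's exact test over the 24732 that could reach p below 0.05. The fit was tested on simulated data. Python 3.11.15 was used with pandas 2.3.3, numpy 2.4.6, matplotlib 3.10.9 and scipy 1.17.1.

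The members, lists and tests were chosen with earlier results of these data known. The text names, for each member, the end region with the highest mean score and up to 3 called falls and 3 called rises with the greatest difference, up to 5 genes of the TALE and neighbour lists, and the 5 genes most like the family. Exceptions are marked where they occur. A result of a comparison list is not reported here. Same-numbered libraries did not vary together. Results were recomputed with other list lengths, a minimum −log10 q of 5, peaks ranked by fold, other overlaps and minimum numbers of libraries, merged peaks, other distances, centred scores, a plainer limma fit, the replicate block, and each library left out. Sequences of the regions themselves are not printed.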

Additional observations from a re-analysis of the deposited data

Results flagged for a closer look

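In 8 of the 53 groups of 5 or 6 libraries examined, a library lay apart from the others by more than Dixon's 95% limit, a mark that chance gives about 1 group in 20. Control replicate 5 was marked for 4 values, all from chromosome 13. It had the lowest mean score over the Irx1 regions, 0.289, where the next control was at 0.429. Its mean over the chromosome 13 cluster was 0.383, where the next was at 0.505. At the Irx1 windows starting at 71963085 and 72043433 it scored 0 and 0.00995, where the next controls were at 0.644 and 0.709. In both windows other controls shared a broad peak with a neighbouring window.

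Knockout replicate 1 had the lowest Irx3 mean, 0.430, where the next was at 0.466. It also was the only knockout with a peak, at 0.0978, in the Irx5 region starting at 92439635. Knockout replicate 5 had no peak (score 0) in the Irx2 region starting at 72648808, where the other 4 knockouts scored at least 0.605. Control replicate 1 scored 0.212 at the Irx3 region starting at 91806908, where the next control was at 0.465.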

How the results depend on the processing

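Alternatives that left a named region untested are not counted here, so the Irx4 region starting at 73279232 has 17 and not 22. For the 22 named regions, 403 of 472 results under an alternative kept their direction and side of the threshold, 60 lost the call, 3 gained it and 6 changed sign. One of the 6 was the Irx1 window starting at 71963085 with lists as deposited (0.0729). The others were start regions that were not called either way, at Irx3 (−0.00575 as deposited, −0.00481 with −log10 q of at least 5, −0.00892 with merged peaks) and at Irx5 (−0.00744 as deposited, −0.00652 with −log10 q of at least 5). Against 14 of 52 regions called lower (20.8% of the genome), 5 of 28 were called with lists cut to 36467 peaks (21.4% of the genome), 9 of 52 with ranking by fold (16.3%), 7 of 36 within 50 kb of a gene and 34 of 111 with no limit on distance. The 111 include regions over 100 kb from a gene, a distance at which 25.3% of the genome's regions were called lower. No genome share is given for the limit of 50 kb, here or for presence. Presence was called at 10 of 18 regions (47.2% of the genome), at 6 of 7 with the shorter lists (62.6%) and at 6 of 10 within 50 kb. It was called at 5 to 6 when a library was left out, where the genome's share was 19.4% to 30.1%. Leaving out a library gave 11 to 14 regions called lower and 5 to 7 higher, and cluster differences of −0.0532 to −0.0110 on chromosome 13 and −0.0707 to −0.0561 on chromosome 8. On chromosome 13 some of these steps also dropped regions with a peak in only 3 libraries. The chromosome 8 difference was −0.109 with lists as deposited and −0.0439 with centred scores, and that of chromosome 13 was 0.0372 with ranking by fold and 0.0289 with merged peaks. The difference in Irx peaks per list was −12.2 as deposited. The cause of these shifts was not tested. With the replicate number as a block, 10 regions were called lower and 5 higher, while 18.1% and 14.9% of the genome were. The numbers are not shown to pair libraries, since same-numbered deviations correlated at −0.0234 to 0.139, and 2 of 5 controls and 2 of 5 knockouts correlated best with their own number. Unknown read depth limits all scores, and a score of 0 says only that no kept peak was there.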

Other observations

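Around the members lay 59 further tested regions more than 100 kb, and up to 499.6 kb, from their nearest gene where that gene is a member. Of the 24 nearest to Irx1, 12 lay on the side away from the other genes of its cluster. Of all 59, limma called 20 lower (33.9%) and 3 higher (5.08%), against 25.3% and 27.1% of the 7652 regions of the genome that far from a gene. Irx1 had 9 of 24 lower and Irx2 5 of 10, with 0 higher at either. The adjoining Irx1 windows starting at 71612759 and 71613489, both called lower, had the same score in all 6 controls, as 1 broad peak gives, and are not independent. Irx3 had 2 of 5 lower and Irx5 4 of 11, with 2 higher at Irx5. The 6 regions of Irx6 held no call and the 3 of Irx4 held 1, which was higher. Every control lay above every knockout at 9 of the 59 regions and every knockout above every control at 2. Over all tested regions, at any distance, the shares were 12.1% and 10.9%. No such share is given for regions of the genome that far from a gene, so these 2 counts are no result about the members.

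These regions were picked after their values were seen. At chr13:71532798-71533197, 425.2 kb from Irx1, the mean score was 0.898 ± 0.0200 in controls against 0.517 ± 0.0749 in knockouts (SD, n = 6 and 5, adjusted p of 5.74e-07 in limma). Nearer Irx3, at chr8:92024140-92024539, it was 0.514 ± 0.118 and 0.0968 ± 0.134 (adjusted p of 6.38e-04 in limma). A region in the other direction, chr8:92238058-92238457, 119.5 kb from Irx5, was at 0.645 ± 0.0537 and 0.837 ± 0.0221 (adjusted p of 7.84e-05 in limma), and its neighbour at chr8:92229731-92230130 was at 0.555 ± 0.0966 and 0.743 ± 0.0168 (0.00360). At both, every knockout scored above every control.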
